A study of Mus musculus with 9 samples.

Results

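Toll-like receptors are the pattern receptors with which macrophages sense microbial lipids, proteins and nucleic acids, and their transcripts were compared here between macrophages of testis, epididymis and brain. The 10 receptor genes Tlr1 to Tlr9 and Tlr13 were taken by symbol from a table of 15434 genes, and all 10 were present. Each organ gave 3 libraries, 9 in all, of macrophages that were sorted from untreated C57BL/6J mice and not cultured; the titles call the brain cells microglia, and 1 brain library has a misspelled tissue label. The labels' protocols describe digestion with collagenase and DNase, a Percoll step and a sort for live cells that carry CD45, CD11b and F4/80 and lack Ly6c and CD11c. The labels name neither sex nor age. They give the 3 libraries of an organ 1 mouse number, a different number for each organ, so organ and mouse number cannot be told apart. Nothing says that the libraries of an organ came from separate animals, so the p-values speak of library-to-library spread alone, and that spread may be technical. One protocol sentence on the pooling of testis and epididymis suspensions is unclear, and groups follow the organ named for each library. In such bulk libraries, fewer cells of a type and less RNA per cell cannot be told apart either.

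The receptors work in groups. Tlr2 pairs with Tlr1 or Tlr6 at the cell surface and recognises lipopeptides, Tlr4 recognises lipopolysaccharide together with Md-2 and Cd14, and Tlr5 recognises flagellin. Tlr3 recognises double-stranded RNA, Tlr7 and Tlr8 recognise single-stranded RNA, Tlr9 recognises unmethylated CpG DNA and Tlr13 recognises bacterial ribosomal RNA, all from endosomes that they reach with the chaperone Unc93b1. Most signal through the adapter Myd88, while Tlr3 signals through Ticam1 (TRIF) and Tlr4 uses both.

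Among the 10 receptors, Tlr2 and Tlr3 were those with a difference between organs that passed the test. Between testis and brain they differed in opposite directions. Tlr12, a Toll-like receptor outside the 10, also had differences that passed and is described below. Tlr2 was higher in macrophages of testis and epididymis than in brain, by 4.71 and 6.26 times in the means. Tlr3 was highest in brain and lowest in testis, 4.19 times lower there than in brain. Tlr8 had no read in any testis library but reads in every epididymis library, a difference that missed the threshold narrowly. It entered the test through those epididymis libraries, and the difference passed in 3 of 19 alternatives. No difference in the other 7 of the 10 receptors passed the test.

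On GRCm38, the assembly that the mm10 build of the submitters' processing notes denotes, GENCODE M21 places Tlr2 on chromosome 3 from 83836272 to 83841767, Tlr3 on chromosome 8 from 45395665 to 45411080 and Tlr4 on chromosome 4 from 66827584 to 66930284. Tlr1 (64924679 to 64933563) and Tlr6 (64952031 to 64960097) are neighbours on chromosome 5, and Tlr5 lies on chromosome 1 from 182954788 to 182976044 and Tlr9 on chromosome 9 from 106222598 to 106226883. Tlr7 (167304929 to 167330558), Tlr8 (167242696 to 167264329) and Tlr13 (106143204 to 106160493) are on chromosome X. Of the Y-linked genes Ddx3y, Eif2s3y, Kdm5d and Uty, all 4 had reads in all 9 libraries, and Xist stood between 1.04 and 74.1 normalised reads. Tlr1 and Tlr6 are close copies: 454 of the 3332 distinct stretches of 50 bases in Tlr1 transcripts (13.6%) also occur in Tlr6, so their levels are uncertain where a read fits both. The other receptors shared no such stretch with each other. Of the 5207 exonic bases of Tlr3, 381 overlap the antisense gene Gm45542, and as the library kit does not mark the strand, reads of the 2 genes cannot be told apart there.

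RefSeq start sites (GRCm38.p6) were matched for 8 of the 10 receptors, with 250 bases before each start. The parts of these windows outside annotated exons are printed for the 2 genes called between organs, Tlr2 and Tlr3, and for Tlr8 and Tlr13, whose testis and epididymis values did not overlap. Capitals mark matches, on either strand, to an NF-kB-type motif (GGGA, any 4 bases, CC) in Tlr2 and Tlr3 and to GAGGAA, the core of the PU.1 box, in Tlr8 and Tlr13.
Tlr2, chr3:83841768-83841858, minus strand: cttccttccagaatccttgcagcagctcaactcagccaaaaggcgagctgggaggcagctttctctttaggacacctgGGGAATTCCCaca
Tlr3, chr8:45410381-45410452, minus strand: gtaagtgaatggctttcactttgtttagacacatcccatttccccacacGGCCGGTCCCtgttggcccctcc
Tlr8, chrX:167264330-167264579, minus strand: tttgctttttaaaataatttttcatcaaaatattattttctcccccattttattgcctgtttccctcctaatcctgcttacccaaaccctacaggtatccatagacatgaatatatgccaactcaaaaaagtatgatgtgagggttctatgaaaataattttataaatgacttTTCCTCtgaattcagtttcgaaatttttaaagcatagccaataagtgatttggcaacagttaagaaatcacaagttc
Tlr13, chrX:106143025-106143203, plus strand: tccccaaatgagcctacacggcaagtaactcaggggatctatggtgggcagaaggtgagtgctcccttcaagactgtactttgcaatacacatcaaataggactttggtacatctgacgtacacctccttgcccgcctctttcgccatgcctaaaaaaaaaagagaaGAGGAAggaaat
The Tlr2 match reads the same on both strands and lies 172 to 163 bases before the RefSeq start. GENCODE begins Tlr2 further upstream, at 83841767, next to the printed stretch, so the match lies closer to that start. The Tlr3 match printed lies 23 to 14 bases before its RefSeq start, and its full window holds a second one from 211 to 202 bases before it. This window lies inside the GENCODE span of Tlr3, which reaches 45411080 on the minus strand. The Tlr3 matches are thus within the annotated gene, not before its outermost start. The NF-kB-type letters occur in 17.6% and the PU.1 letters in 23.3% of all 32851 windows of this length, so the matches are a description of the sequences only. Neither the interferon-response motif (GAAA, any 2 bases, GAAA; 2.98% of windows) nor the AP-1 motif TGANTCA (6.75%) occurred in the windows of these 4 genes, both strands searched.

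Depth ran from 2727092 to 4458688 reads on genes per library, and 1 read was worth between 0.808 and 1.11 normalised reads. Values below are these normalised read counts. The macrophage marker Csf1r stood between 6845 and 24507 in every library, while the F4/80 gene Adgre1 stood only between 42.4 and 88.3 in brain. Low values were often missing from single libraries. Of tested genes with a mean from 20 to 50 in an organ, 32.3% in testis, 43.4% in epididymis and 14.1% in brain had no read in at least 1 of the 3 libraries. With means from 50 to 100, these shares were 5.79%, 9.29% and 1.83%. Tlr1, Tlr5, Tlr6, Tlr8, Tlr9 and Tlr13 had a mean below 50 in at least 1 organ.

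**Figure D1:**
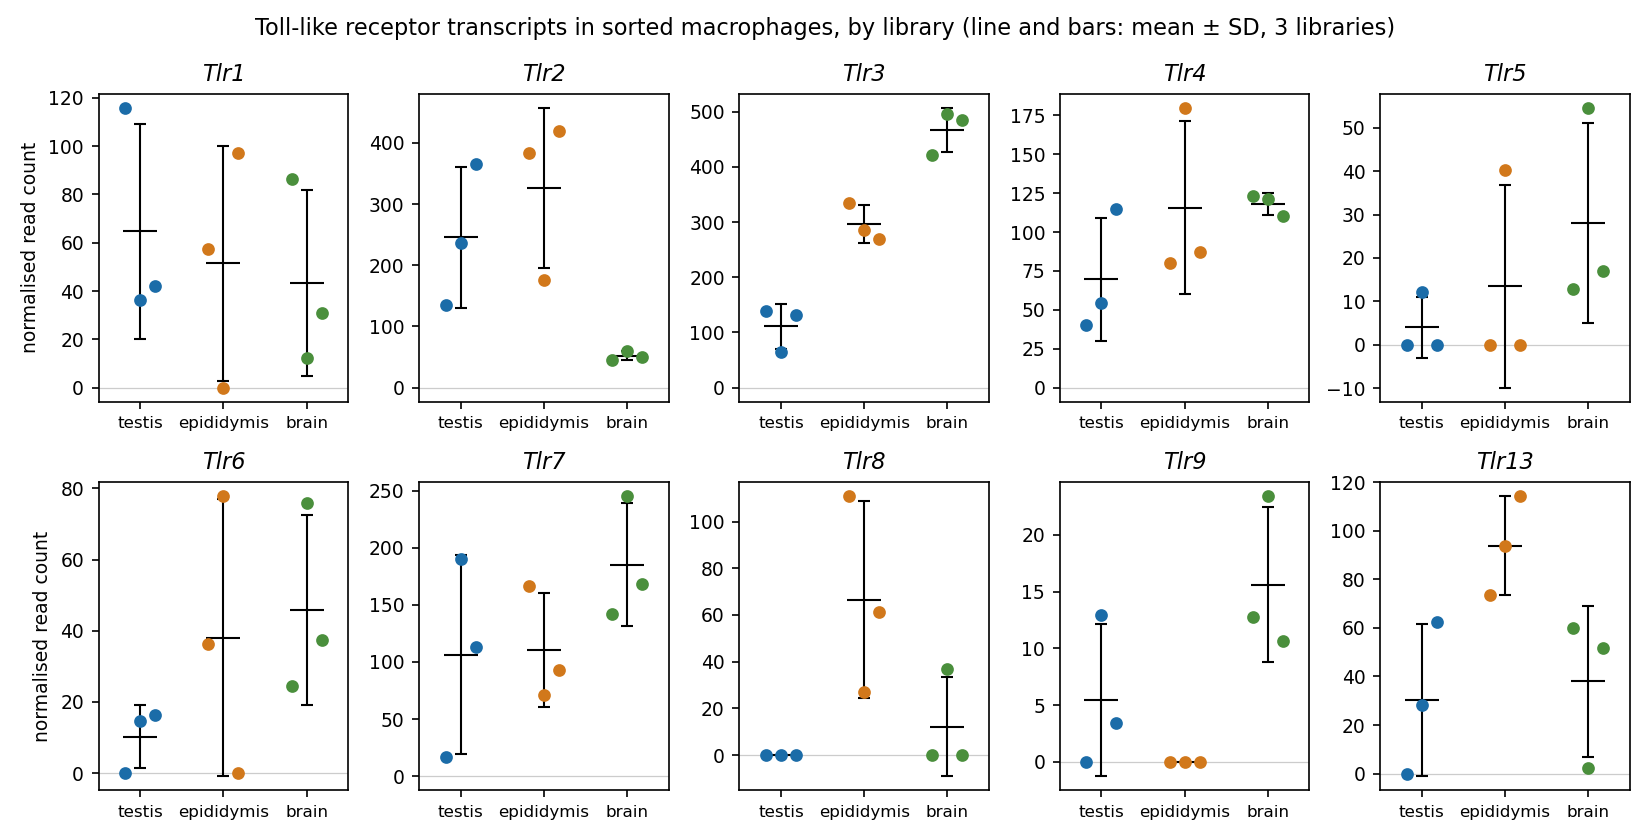
Normalised read count (y axis) of the 10 receptors in each library of testis, epididymis and brain (points), with the mean and SD of the 3 libraries (black). All Tlr2 points of testis and epididymis lie above the brain points at 45.5 to 60.2, the Tlr3 points step up from testis to brain, and Tlr8 is at 0 in every testis library.

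To compare receptors with each other, values were divided by the kilobases of merged exons. Per kilobase, Tlr2 had the highest mean of the 10 receptors in testis (81.6 ± 38.1, SD, n = 3) and in epididymis (108 ± 43.5), and ranked 4 in brain (17.3 ± 2.47). Tlr3 had the highest mean in brain (89.7 ± 7.78) and stood at 57.0 ± 6.49 in epididymis and 21.4 ± 7.81 in testis. Tlr7 came next in brain at 45.3 ± 13.1 per kilobase. Tlr12, a Toll-like receptor outside the 10, is left out of these ranks and of the shares below. In epididymis its mean was 630 over 3.177 kilobases of exons, beside 326 over 3.014 kilobases for Tlr2. The first rank of Tlr2 there thus holds among the 10 only. Within a library, Tlr2 took between 38.3% and 53.4% of the summed receptor level per kilobase in testis, between 26.4% and 46.1% in epididymis and between 7.35% and 8.05% in brain. Tlr3 took between 7.10% and 22.7% in testis, between 17.1% and 24.7% in epididymis and between 38.1% and 44.6% in brain. The ratio of Tlr2 to Tlr3 per kilobase, formed after the values were seen, was 1.69, 6.33 and 4.82 in the testis libraries, 1.98, 1.06 and 2.69 in the epididymis libraries and 0.187, 0.210 and 0.181 in the brain libraries. Being taken within a library, this ratio does not depend on how libraries were scaled, and it was above 1 in all 6 libraries of the reproductive tract and below it in all 3 of the brain. Its 2 genes were picked for their opposite differences, so the ratio is no separate support. Where it stands against 1 also rests on the exon lengths used.

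**Figure D2:**
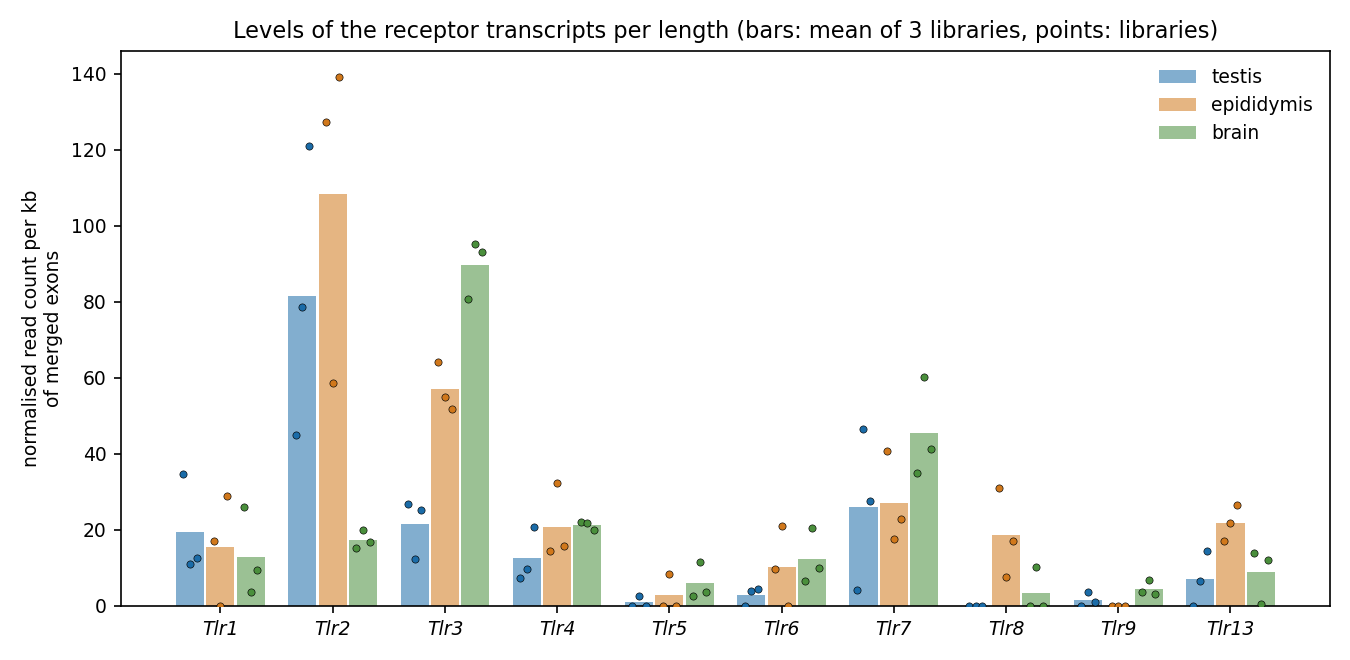
Normalised read count per kilobase of merged exons (y axis, from 0) for the 10 receptors; bars are means of 3 libraries and points single libraries. Tlr2 is the tallest bar in testis (81.6) and epididymis (108), Tlr3 in brain (89.7).

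Among the surface receptors, Tlr2 stood at 136, 237 and 365 in the testis libraries, at 384, 176 and 419 in the epididymis libraries and at 45.5, 60.2 and 50.7 in the brain libraries. The lowest library of the reproductive tract, testis replicate 1, was above the highest brain library, and testis and epididymis overlapped. Tlr2 exceeded its brain level in testis by a log2 fold of 2.11 (SE 0.50, limma adjusted p = 0.011) and in epididymis by 2.54 (SE 0.50, limma adjusted p = 0.0070), folds being on the log2(value + 1) scale. The testis call was lost without testis replicate 3 (limma adjusted p = 0.066, log2 fold 1.77) and narrowly without the variance trend (0.051), whereas the epididymis call held under all 20 alternatives. Between testis and epididymis the difference did not pass (log2 fold -0.42, 95% interval -1.48 to 0.64), an interval that holds differences in either direction.

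No difference passed for the partners of Tlr2, Tlr1 and Tlr6, which does not show that their pattern was unlike that of Tlr2. Tlr1 stood at 116, 36.4 and 41.9 in testis, 57.3, 0 and 97.0 in epididymis and 86.5, 12.3 and 31.1 in brain, so that the organs overlapped throughout. Tlr6 stood at 0, 14.5 and 16.2 in testis, 36.4, 77.9 and 0 in epididymis and 24.6, 75.8 and 37.3 in brain, where all 3 libraries were above those of testis. That difference of Tlr6 did not pass (log2 fold -2.71, SE 1.79, limma adjusted p = 0.40). The 95% interval of Tlr1 between epididymis and brain ran from -4.21 to 2.41 on the log2 scale, the width that the spread between these libraries left. Between testis and brain it ran from -2.53 to 4.09, which holds the log2 fold of 2.11 of Tlr2 there.

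Tlr4, the lipopolysaccharide receptor, stood at 40.4, 54.1 and 115 in testis, 80.0, 180 and 87.3 in epididymis and 123, 122 and 110 in brain. Brain libraries were close together, and those of the other organs spread more widely. No difference in Tlr4 passed, with log2 folds of -0.77 (testis against epididymis, 95% interval -2.07 to 0.53), -0.89 (testis against brain, -2.19 to 0.41) and -0.13 (epididymis against brain, -1.43 to 1.17). Tlr5, the flagellin receptor, had reads in all 3 brain libraries (12.8, 54.6 and 16.9) but in only 1 library of testis (12.1) and 1 of epididymis (40.3). Testis values of Tlr5 lay below all brain values, yet the difference did not pass (log2 fold -3.34, SE 1.75, limma adjusted p = 0.27).

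Among the endosomal receptors, Tlr3 stood at 139, 64.6 and 131 in testis, at 335, 286 and 270 in epididymis and at 421, 496 and 484 in brain. The 3 organs did not overlap, and the order was brain, epididymis, testis. Testis libraries had less Tlr3 than brain libraries, with a log2 fold of -2.13 (SE 0.37, limma adjusted p = 0.0011), a call that held under all 20 alternatives. They also had less than epididymis libraries, with a log2 fold of -1.48 (SE 0.37, limma adjusted p = 0.033). That second call was narrow and held in 10 of 20 alternatives. Its limma adjusted p lay between 0.053 and 0.10 without testis replicate 2, any epididymis replicate or any brain replicate, and 0.14 without the variance trend. Epididymis and brain, neighbours in the order, did not differ by this test (log2 fold -0.66, 95% interval -1.44 to 0.13, limma adjusted p = 0.41) although their values did not overlap. Taken over all 3 organs, the F test of limma called both Tlr2 (adjusted p = 0.0056) and Tlr3 (adjusted p = 0.0030), and it did so in all 19 alternatives run, with an adjusted p of at most 0.046 and 0.041.

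Tlr8 had no read in the 3 testis libraries, stood at 111, 27.2 and 61.5 in epididymis and at 0, 36.8 and 0 in brain. The epididymis mean of 66.5 ± 42.1 (SD, n = 3) was 24.7 times a floor of 3 reads in each testis library. This floor covers counting error only and not the spread between libraries, so the ratio is no lower bound. In the test the difference narrowly missed the threshold (limma adjusted p = 0.054), while it passed in 3 of 19 alternatives, with a pseudocount of 8 (0.036), without brain replicate 2 (0.027) and with DESeq2 (0.0066). Tlr8 entered the test through its epididymis libraries, which gave 3 of the 4 values of at least 10. Between epididymis and brain Tlr8 did not pass (log2 fold 4.12, SE 1.62, limma adjusted p = 0.20).

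Tlr13 stood at 0, 28.3 and 62.4 in testis, 73.6, 93.8 and 114 in epididymis and 60.1, 2.23 and 51.6 in brain. All epididymis values were above those of both other organs, but neither difference passed (testis against epididymis, log2 fold -2.93, SE 1.59, limma adjusted p = 0.365; epididymis against brain, log2 fold 2.10, SE 1.59, limma adjusted p = 0.586). Tlr7 was present in every library, at 16.6, 190 and 113 in testis, 166, 71.3 and 92.7 in epididymis and 142, 245 and 168 in brain. Testis replicate 1 was the low library, the organs otherwise overlapped, and no difference passed, with a 95% interval from -2.93 to 0.29 for testis against brain. Tlr9 was the least detected receptor beside Tlr8 and Tlr5. It had no read in epididymis, 0, 12.9 and 3.42 in testis and 12.8, 23.4 and 10.7 in brain. Its brain mean of 15.6 ± 6.84 (SD, n = 3) was 5.34 times a floor of 3 reads in each epididymis library, which covers counting error only. The test did not pass (limma adjusted p = 0.13).

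All 10 receptors passed the filter on low values. Tlr5 and Tlr9 passed it through their 3 brain libraries and Tlr8 through its 3 epididymis libraries, with 2 further libraries of at least 10 for Tlr5 and 1 each for Tlr8 and Tlr9. Entry through the group where a gene is high favours a difference from that group without fixing it. The counts of values that did not overlap are therefore no support where they hold these genes. Between testis and epididymis, 1 of 10 was called (Tlr3, lower in testis), against 4.39% of the 11766 genes tested (2.49% higher and 1.9% lower in testis), and 3 of 10 had values that did not overlap (Tlr3, Tlr8 and Tlr13, all lower in testis), against 19.8% (11% higher and 8.8% lower). Between testis and brain, 2 of 10 were called (Tlr2 higher, Tlr3 lower), against 11.7% (6.82% higher and 4.83% lower), and 4 of 10 did not overlap (also Tlr5 and Tlr6, both lower), against 30.8% (15.9% higher and 14.9% lower). Between epididymis and brain, 1 of 10 was called (Tlr2 higher), against 4.79% (2.99% higher and 1.8% lower), and 4 of 10 did not overlap (Tlr2 and Tlr13 higher, Tlr3 and Tlr9 lower), against 22% (10.5% higher and 11.5% lower). Over the 3 organs, 2 of 10 passed the F test, against 11.4%. With 10 genes these shares are close to the background. The median log2 fold of the 10 was -0.66 for testis against epididymis, -1.53 for testis against brain and -0.73 for epididymis against brain, beside medians of all tested genes of 0.10, -0.07 and -0.13. The 3 comparisons share libraries in pairs.

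**Figure D3:**
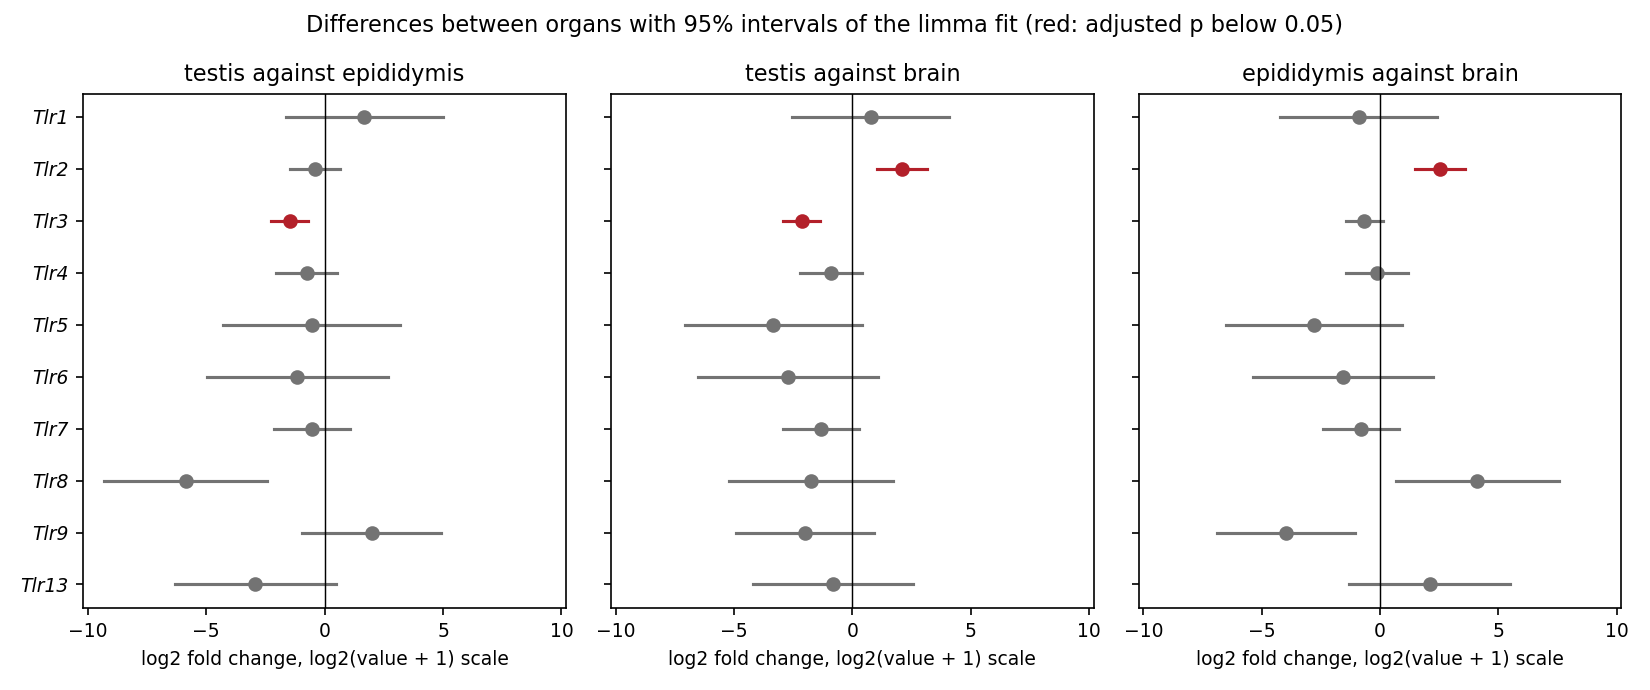
Log2 fold change of each receptor (x axis, log2(value + 1) scale) in the 3 comparisons with the 95% interval of the limma fit; red marks an adjusted p below 0.05. The intervals of Tlr2 and Tlr3 are narrow, and those of Tlr1, Tlr5, Tlr6, Tlr8 and Tlr13 span several log2 units.

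As a description, the genes whose log2 values most resembled those of Tlr3 over the 9 libraries, among 5894 genes with a mean of at least 110 in some organ, were Phyhd1 (r = 0.990), the formin gene Fmnl3 (r = 0.986) and the microglia gene Olfml3 (r = 0.985). Olfml3 stood at 35.9 ± 29.1 in testis, 640 ± 238 in epididymis and 2117 ± 227 in brain (SD, n = 3). For Tlr2 they were Hdgf (r = 0.958), the metallothionein gene Mt1 (r = 0.952) and Itpripl2 (r = 0.944). Mt1 stood at 470 ± 132, 681 ± 223 and 229 ± 38.8 in testis, epididymis and brain (SD, n = 3). The points share their libraries and the organ means, and such likeness says nothing of control.

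Outside the 10 receptors, 95 other genes were followed, of which 80 were tested. They were genes of the pathway and, for 12 of the 95, innate sensors outside the family. Between testis and epididymis 2 were higher and 9 lower in testis, between testis and brain 10 were higher and 10 lower in testis, and between epididymis and brain 9 were higher and 1 lower in epididymis. These were 13.75%, 25% and 12.5% of the 80, beside 4.39%, 11.7% and 4.79% of all tested genes. A pair of further mouse Toll-like receptors belongs to this set. Tlr12, a sensor of protozoan profilin on chromosome 4, stood at 456, 510 and 923 in epididymis, at 39.3, 63.0 and 23.1 in testis and at 22.8, 159 and 172 in brain. All epididymis libraries lay above all others, and Tlr12 differed between testis and epididymis by a log2 fold of -3.92 (SE 0.71, limma adjusted p = 0.0046) and between epididymis and brain by 2.78 (SE 0.71, limma adjusted p = 0.034). The latter call was lost without brain replicate 1 (log2 fold 1.85) or any of the epididymis replicates (limma adjusted p up to 0.145), and both without the variance trend (0.072 and 0.16). Tlr11 was too low to be tested, with 79.7, 1.62 and 13.7 in testis and no read in epididymis.

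Of the 6 tested co-receptors and ligand carriers, Cd180, a receptor homologue that modulates responses to lipopolysaccharide, was lower in testis. It stood at 21.7, 48.5 and 56.4 in testis, 512, 373 and 357 in epididymis and 333, 390 and 260 in brain. The testis libraries were far below the rest, and the call against epididymis (log2 fold -3.35, SE 0.45, limma adjusted p = 0.00054) and that against brain (log2 fold -3.01, SE 0.45, limma adjusted p = 0.00028) held under all 20 alternatives. Of its exonic bases, 182 overlap Mast4 on the other strand. Cd36, a scavenger receptor that passes lipids to Tlr2 with Tlr6, went the way of Tlr2, at 410 ± 195 in testis, 652 ± 171 in epididymis and 3.56 ± 5.40 in brain (SD, n = 3), with log2 folds against brain of 7.13 and 7.86 (SE 0.80, limma adjusted p = 2.1e-05 and 2.2e-05). With brain so near 0 the size of these folds rests on single brain libraries: without brain replicate 2 they were 6.40 and 7.13, and without brain replicate 3 they were 8.12 and 8.85. Cd14, the lipopolysaccharide carrier of Tlr4, stood at 125, 235 and 443 in testis, 175, 155 and 20.5 in epididymis and 64.7, 37.9 and 64.9 in brain; testis and brain did not overlap, and their difference did not pass (log2 fold 2.10, limma adjusted p = 0.10). The Md-2 gene Ly96 was low, at 1.04 to 61.6 in testis, 0 to 8.18 in epididymis and 14.5 to 22.2 in brain.

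Among 11 tested genes of receptor folding, trafficking and endosomal processing, 3 were lower in testis than in epididymis and 6 lower than in brain, with none higher, beside 1.9% and 4.83% of all tested genes lower in testis. Unc93b1, which carries Tlr3, Tlr7, Tlr9 and Tlr13 to endosomes, stood at 717, 956 and 1195 in testis, 2275, 1788 and 1805 in epididymis and 1732, 1180 and 2001 in brain. Its log2 fold between testis and epididymis was -1.05 (SE 0.25, limma adjusted p = 0.024), a call lost in 5 of 9 leave-outs (without testis replicate 1 or 2 or any epididymis replicate), and it did not pass against brain (limma adjusted p = 0.056). Ctsl, a cathepsin that cleaves endosomal receptors, stood at 273 ± 146 in testis, 524 ± 33.0 in epididymis and 1617 ± 522 in brain (SD, n = 3), with a log2 fold of -2.64 between testis and brain (SE 0.35, limma adjusted p = 0.00010). Between epididymis and brain its log2 fold was -1.57 (SE 0.35, limma adjusted p = 0.014), a call lost without any epididymis replicate or brain replicate 2 or 3. Hsp90b1, the chaperone needed for receptor folding, was lower in testis than in brain (1826 ± 233 against 3497 ± 183, SD, n = 3, log2 fold -0.94, SE 0.17, limma adjusted p = 0.0020), but not without the variance trend (0.13). The protease gene Ctss stood at 5059 ± 2390, 12103 ± 2985 and 8717 ± 1223 in testis, epididymis and brain (SD, n = 3), with a limma adjusted p of 0.0096 for testis against epididymis and 0.045 against brain. The first was lost without testis replicate 1 or 2 or epididymis replicate 1, the latter in 7 of 9 leave-outs, holding only without testis replicate 3 or epididymis replicate 1. Dnase2a, an endolysosomal DNase, stood at 475 ± 89.4, 953 ± 167 and 940 ± 156 in the same order (SD, n = 3; limma adjusted p = 0.031 and 0.016). Without testis replicate 1 neither Dnase2a call held; the first was also lost without testis replicate 3 or epididymis replicate 1 or 3, the other without brain replicate 1. Slc15a4, a lysosomal peptide and histidine transporter needed for Tlr7 and Tlr9 signalling, was lower in testis than in brain (296 ± 54.1 against 735 ± 54.4, SD, n = 3, limma adjusted p = 0.011), except without brain replicate 2. Its relative Slc15a3 was higher in epididymis than in brain (1677 ± 222 against 796 ± 205, SD, n = 3, limma adjusted p = 0.022), except without epididymis replicate 2 or 3 or brain replicate 1. Of the calls named here for folding, trafficking and processing genes, that of Ctsl for testis against brain alone held without the variance trend.

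Of 5 adapters, the phosphoinositide 3-kinase adapter Pik3ap1 was called, lower in testis than in epididymis (99.1 ± 16.7 against 341 ± 37.8, SD, n = 3, limma adjusted p = 0.028). That call was lost in 5 of 9 leave-outs (without testis replicate 2 or 3 or any epididymis replicate), with an adjusted p of up to 0.090 there or without the variance trend. Myd88 stood between 49.6 and 59.8 in testis, 19.4 and 44.1 in epididymis and 41.8 and 78.0 in brain, and Ticam1 between 5.18 and 68.7 in testis, 4.31 and 36.6 in epididymis and 7.11 and 42.8 in brain, without a call for either. Tirap, the bridging adapter of Tlr2 and Tlr4, stood at 113 ± 2.29, 90.3 ± 62.6 and 156 ± 122, and Ticam2 (TRAM), which links Tlr4 to Ticam1, at 107 ± 36.7, 124 ± 71.0 and 162 ± 41.3 in testis, epididymis and brain (SD, n = 3), also without a call. Of 17 tested kinases, ubiquitin ligases and IKK subunits, 1 passed in any comparison, the kinase gene Map3k8, higher in testis than in brain (541 ± 86.1 against 153 ± 30.7, SD, n = 3, limma adjusted p = 0.017), a call lost in 4 of 9 leave-outs (without testis replicate 1 or 2 or brain replicate 1 or 2). Of these 17, 8 had an unadjusted p below 0.05 between testis and brain and 8 had values that did not overlap, beside 30.8% of all tested genes that did not overlap. Of 8 transcription factors, Irf7, which drives interferon genes after Tlr7 and Tlr9, was higher than in brain (19.6 ± 18.1, SD, n = 3) in testis (227 ± 166, limma adjusted p = 0.018) and epididymis (482 ± 197, limma adjusted p = 0.0069). The testis call was lost without testis replicate 2 or 3, and without brain replicate 1, which had no read, the log2 folds of 4.25 and 5.55 became 2.62 and 3.92. Rel, an NF-kB subunit, was higher in testis than in brain (955 ± 238 against 381 ± 45.5, SD, n = 3, limma adjusted p = 0.0041). Irf8, a factor of the macrophage lineage, was lower in testis than in epididymis and brain (2015 ± 200, 3484 ± 66.5 and 3547 ± 389, SD, n = 3). Its limma adjusted p was 0.016 against epididymis, a call lost without testis replicate 1 or epididymis replicate 2, and 0.0054 against brain. Of 10 tested inhibitors, none was called between testis and epididymis by limma (1 with an unadjusted p below 0.05, and 4 and 3 for testis and epididymis against brain). Inpp5d, the phosphatase SHIP1, was lower in testis than in brain (533 ± 245 against 1214 ± 216, SD, n = 3, limma adjusted p = 0.0094), except without brain replicate 1. Ptpn6, the phosphatase SHP-1, was higher in epididymis than in brain (limma adjusted p = 0.044), a call that held in 6 of 20 alternatives and, among leave-outs, without brain replicate 3 alone. Irak3, an inhibitor of receptor signalling, stood at 52.2 ± 21.4, 46.0 ± 29.4 and 5.16 ± 8.94 in testis, epididymis and brain (SD, n = 3) and was not called. Without the variance trend, none of these calls from Pik3ap1 to Ptpn6 held.

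Of 11 tested response genes, which the receptors and also other stimuli induce, 6 were higher in testis than in brain and 4 higher in epididymis than in brain, with none lower, beside 6.82% and 2.99% of all tested genes higher. Between testis and epididymis 2 were higher and 1 lower in testis, beside 2.49% and 1.9%. Il1b stood at 399 ± 86.7 in testis, 235 ± 47.3 in epididymis and 22.6 ± 6.47 in brain (SD, n = 3; limma adjusted p = 2.9e-05 and 0.00060 against brain). Nfkbia, the inhibitor gene that NF-kB induces, was higher in testis than in either organ (17889 ± 373 against 5574 ± 1042 in epididymis and 6933 ± 2360 in brain, SD, n = 3, limma adjusted p = 0.00041 and 0.00038), and Cxcl10 was higher in epididymis than in either (1023 ± 179 against 277 ± 87.3 in testis and 138 ± 7.14 in brain, SD, n = 3, limma adjusted p = 0.0024 and 5.9e-05). The chemokine gene Cxcl2 stood at 6595, 6098 and 25746 in testis, 3581, 1408 and 1941 in epididymis and 46.5, 129 and 176 in brain. It was called in all 3 comparisons (limma adjusted p = 0.026 for testis against epididymis, 8.7e-07 for testis against brain and 0.00015 for epididymis against brain). The first was lost without testis replicate 3, by far the highest library (log2 fold 1.57 in place of 2.24), without epididymis replicate 2 or 3, under quantile normalization (0.057) and with only these 2 organs in the fit (0.087). Without testis replicate 3, testis against brain was 5.94 in place of 6.62. Ccl5 stood at 222 ± 52.7, 79.3 ± 26.5 and 6.07 ± 10.5 in the same order (SD, n = 3; limma adjusted p = 0.0027 and 0.033 against brain). Its log2 folds against brain were 7.77 and 6.27 without brain replicate 1, the brain library with reads, in place of 6.35 and 4.85, and the epididymis call held in that leave-out alone. Cxcl1 was also higher in testis than in brain (60.2 ± 30.0 against 0.607 ± 1.05, SD, n = 3, limma adjusted p = 0.018), a call lost without testis replicate 1 or 3 or brain replicate 2 or 3. Without the variance trend, both Nfkbia calls (0.079 and 0.065) and the Cxcl10 call against testis (0.057) did not pass, nor did Cxcl2 between testis and epididymis or Ccl5 between epididymis and brain. Il6 had no read in testis or epididymis. Of 11 tested sensors outside the family, Tmem173, which encodes the DNA-pathway adapter STING, was called, at 389 ± 35.5 in testis, 1058 ± 121 in epididymis and 1727 ± 218 in brain (SD, n = 3; limma adjusted p = 0.0011 for testis against epididymis and 6.8e-06 against brain), the order of Tlr3. The first of these did not pass without the variance trend (0.081).

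**Figure D4:**
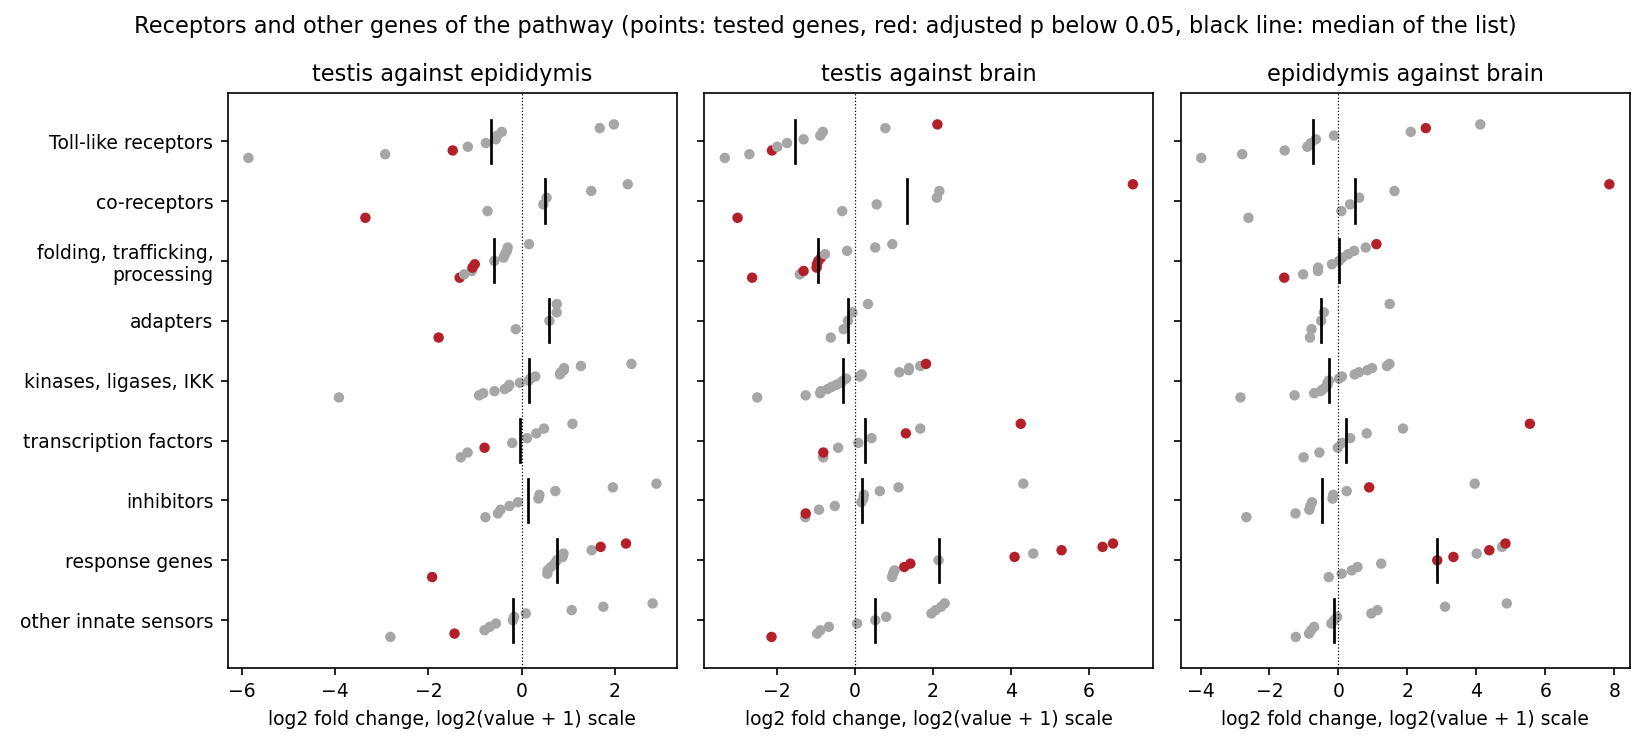
Log2 fold changes (x axis, log2(value + 1) scale) of the tested receptors, other pathway genes and other innate sensors by list (rows) in the 3 comparisons. Points are genes, red marks an adjusted p below 0.05 and the black line is the list's median. Called response genes lie to the right of 0 in both comparisons with brain, and called folding, trafficking and processing genes to the left in both comparisons of testis.

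Many but not all marker lists held genes called between organs, and their part in the results was not tested. Their counts of called genes are to be read beside the 4.39% (testis against epididymis), 11.7% (testis against brain) and 4.79% (epididymis against brain) of all tested genes called. The summed level of the 9 macrophage and sort-gate genes lay between 10484 and 13010 in testis, 19138 and 22870 in epididymis and 29429 and 32294 in brain, where Itgax was at 0. Of these, 4 were lower in testis than in epididymis, and in testis against brain 3 were lower and 1 higher. Between epididymis and brain, Ptprc, Adgre1 and Itgax were higher in epididymis and Itgam and Mertk lower. The 8 microglia genes in the table summed to between 2899 and 3318 in testis, 11485 and 13852 in epididymis and 29538 and 34263 in brain, the order of Tlr3, and all 8 were lower in testis than in brain. Of the 8, 6 were lower in testis than in epididymis and 6 lower in epididymis than in brain. The 7 monocyte genes in the table summed to between 1790 and 2522 in testis, 68.2 and 314 in epididymis and 118 and 233 in brain, with Plac8 at 0 in epididymis, and 1 of 6 tested was higher in testis than in epididymis and 3 than in brain. The 6 T and NK cell genes in the table summed to between 456 and 887 in testis, 65.5 and 174 in epididymis and 77.3 and 154 in brain, and 1 of 6 was higher in testis than in epididymis and 3 than in brain, where Cd3e and Nkg7 were at 0. The 6 neutrophil genes in the table summed to between 144 and 256 in testis, 122 and 304 in epididymis and 201 and 465 in brain, and 5 of them, S100a8 and S100a9 included, had no read in testis. Of 3 tested, S100a8 and S100a9 were called lower in testis and in epididymis than in brain. The 10 genes of Leydig, Sertoli and germ cells in the table summed to between 1803 and 4794 in testis, 513 and 991 in epididymis and 145 and 212 in brain. Of 9 tested, 3 were higher in testis than in epididymis and 6 higher in testis than in brain. Between epididymis and brain, 4 of them were higher in epididymis. The 7 genes of epididymal epithelium in the table summed to between 440 and 515 in epididymis, where Tlr2, Tlr8, Tlr12 and Tlr13 had their highest means, and to at most 16.2 in testis and 8.20 in brain. The 2 tested, Defb20 and Adam7, were called higher in epididymis than in testis and in brain. The 6 genes of neurons, astrocytes and oligodendrocytes in the table summed to between 224 and 523 in testis, 138 and 290 in epididymis and 659 and 946 in brain. Tlr3, Tlr4, Tlr5, Tlr6, Tlr7 and Tlr9 had their highest means in brain. Of 5 tested, Aqp4 and Slc1a3 were lower in testis than in brain and Aqp4 was lower in epididymis than in brain, with Aqp4 at 0 in all testis and epididymis libraries. The 8 B cell and plasmacytoid dendritic cell genes summed to between 1107 and 1668 in testis, 1228 and 1559 in epididymis and 1576 and 1911 in brain, mostly from Tcf4, and none of 5 tested was called by limma in any comparison (0, 0 and 0 with an unadjusted p below 0.05). The 6 dendritic cell genes summed to between 595 and 880 in testis, 214 and 495 in epididymis and 206 and 227 in brain. Of 6 tested, Ccr7 was called higher in testis than in epididymis and Xcr1 higher in testis than in brain. The 6 endothelium and fibroblast genes in the table summed to between 204 and 349 in testis, 110 and 301 in epididymis and 323 and 483 in brain. None of 5 tested was called by limma in any comparison (0, 2 and 1 with an unadjusted p below 0.05). For scale, the 10 receptors summed to between 447 and 847 in testis, 953 and 1243 in epididymis and 928 and 1128 in brain.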

How the data were processed

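RNA was measured in 9 libraries of sorted macrophages, 3 per organ, made from 10 ng of RNA with the TruSeq RNA kit, per the labels' protocols; that kit does not mark the strand. By their values, the deposited signal values are read counts of genes, each library scaled by its own factor. The submitters' processing notes name CASAVA 1.8, Bowtie2 2.2.1, Partek 6.6, DESeq2 and mm10. How each was used, how reads were counted and with which gene models is not given in the sources used here. All values (100%) were whole multiples of the smallest value above 0 of their library, within 3.93e-10 reads, so whole reads were recovered.

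On the log2(value + 1) scale, the 11766 genes that reached 10 in 3 or more libraries were fitted with limma 3.58.1 in R 4.3.3, with 1 mean per organ, a variance trend on the mean, 6 residual and 9.08 prior degrees of freedom, and Benjamini-Hochberg adjustment over all genes of a comparison. A call is an adjusted p below 0.05. Alternatives were other pseudocounts, filters, scalings and variance models, leaving out each library, and edgeR 4.0.16 and DESeq2 1.42.0 on the recovered reads. The fit was tested on simulated data. Columns were matched to libraries by the number in the title, and replicate numbers follow accession order.

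The members, gene lists and tests were chosen with earlier results of these data known. The rule for named genes took all 10 receptors. From the pathway and sensor lists it took the called genes with the largest folds whose libraries did not overlap (up to 3 per list and direction). It also took 10 partner genes and, for receptors passing the F test, the 3 most similar genes. Of the partner genes, Ly86 had no call in any comparison, and its values are not given here. Il6, Tlr11, Csf1r, Adgre1, Tcf4 and the other single marker genes stand outside the rule, chosen after their values were seen.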

Additional observations from a re-analysis of the deposited data

How the results depend on the processing

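The count of receptors called between testis and epididymis (1) became 2 with a pseudocount of 8 or DESeq2 (Tlr8 added), and 0 without a filter, without the variance trend or with only these 6 libraries. It lay between 0 and 1 when a library was left out. Between testis and brain (2) it was 1 without the variance trend and 1 to 2 in leave-outs. Between epididymis and brain it stayed at 1 under all 20 alternatives. Among the 3 organs (2) it lay within 2 to 3. For the alternatives with fewer libraries, the smaller number of samples is part of their construction; otherwise the cause was not tested. Scaling libraries to the same total moved the median of all genes by -0.17 (testis against epididymis) and -0.23 (testis against brain) and turned the calls from 293 higher and 223 lower to 227 and 307, and from 803 and 568 to 651 and 775; quantile normalization gave 223 and 256 in the first. With the same total, Tlr2 (log2 fold 1.88 against brain in testis) and Tlr3 (-2.36) kept their calls.

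Uncalled receptors changed sign in some alternatives. Tlr1 between epididymis and brain turned to 0.19 with edgeR and 0.25 with DESeq2. In leave-outs its log2 fold ran from -2.13 to 1.18, and between testis and epididymis from -0.40 to 2.91. Likewise between testis and epididymis Tlr5 ran from -1.79 to 1.24, Tlr6 from -3.07 to 0.19 and Tlr7 from -1.22 to 0.50, between testis and brain Tlr13 from -2.21 to 0.98, and between epididymis and brain Tlr4 from -0.49 to 0.087 and Tlr6 from -2.79 to 0.36.

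Over all genes, calls without the variance trend fell from 516 to 192 (testis against epididymis), 1371 to 837 (testis against brain), 564 to 306 (epididymis against brain) and 1337 to 737 (F test). They were 250 with only testis and epididymis in the fit, 788 (testis against epididymis) and 910 (epididymis against brain) with DESeq2. edgeR on the recovered reads called 366, 1056 and 460 genes in the comparisons of testis with epididymis, testis with brain and epididymis with brain. In leave-outs the limma counts fell as low as 278 (without epididymis replicate 2) and 827, 320 and 859 (each without brain replicate 1). Of 41 calls of pathway genes and other innate sensors, 12 held under every alternative, 28 were lost without the variance trend and 20 in a leave-out. With a minimum value of 50 no value was obtained for Tlr5, Tlr6, Tlr8 and Tlr9, with DESeq2 none for Tlr9 in the comparisons with epididymis, and the fit of 2 organs gives none for the F test. No paired analysis was possible because the labels give no replicate number or other link between libraries of different organs.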
